A study of Mus musculus with 56 samples.

Results

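The genes of the proteasome, the particle that degrades proteins tagged with ubiquitin, were followed around the day in the hearts of mice fed only by day or only by night. Members were the genes whose symbol starts with Psma, Psmb, Psmc, Psmd or Psme and a digit, with pseudogenes left out, which gave 44 of the 22864 genes listed. Hearts came from 9-week-old female C57BL/6J mice on normal chow, with lights on for 12 h of each day. Before collection the animals had spent 7 days on daytime-restricted feeding (DRF) or on nighttime-restricted feeding (NRF, the control). Polyadenylated RNA of the heart was sequenced every 4 h from ZT0 (lights on, with ZT for zeitgeber time in hours) until ZT24, which gave 7 times with 4 libraries for each time and regimen and 56 libraries in all. The labels do not say which libraries came from separate mice, so p-values measure the spread between these libraries. The comparison asks whether the daily course of these genes followed the light cycle or the time of food.

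The proteasome has a barrel, the 20S core, made of alpha rings outside and beta rings inside, and the beta rings carry the cutting sites. The 19S particle caps the barrel. Its ATPases unfold substrates, and its other subunits bind ubiquitin chains, remove them and hold the complex together. Inducible beta subunits take the place of the constitutive catalytic ones under interferon, and they are abundant in white blood cells, where they serve the making of peptides for antigen presentation. Other activators, PA28 and PA200, bind the ends of the barrel in place of the 19S particle. In heart muscle the proteasome removes damaged and surplus proteins, and its subunit genes are known to be raised together by the transcription factor encoded by Nfe2l1.

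Levels are given as linear TPM (reads over exon length, scaled to the same total in every library), recomputed from the reads of each library, which numbered 29.3 to 53.0 M with a median of 37.4 M. The members held 0.314 to 0.388% of the reads, and all 44 had a mean of at least 1 TPM and were tested. As a check of the labelled tissue, 6 cardiomyocyte genes summed to between 20380 and 33270 TPM in every library. Markers of 7 white blood cell genes summed to 217.6 to 699.2 TPM under NRF and to 186.5 to 609.3 TPM under DRF, with Cd3e, which marks T cells, at a mean of 0.114 TPM. A pair of lung markers summed to at most 20.8 TPM. Mitochondrially encoded transcripts took 33.0 to 46.1% of all TPM. In whole heart, fewer cells of a type and less RNA per cell cannot be told apart.

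Promoters of the members were read from RefSeq (build GRCm38.p6), from 250 bases before to 50 bases after the annotated start, and 37 of the 44 members had an entry. The ETS motif CCGGAAG was found on either strand in 13 of them (35.1%), against 9.93% of all 27025 genes with a promoter. Psma6, Psmc1, Psmc2, Psmc6, Psmd2, Psmd4, Psmd6, Psmd11, Psmd12, Psmd13, Psme3 and Psme4 held it, as did Psmc3ip, which the symbol rule takes but which encodes a recombination cofactor and no proteasome subunit. The antioxidant response element core TGACNNNGC, which the factors encoded by Nfe2l1 and Nfe2l2 bind, was found in 6 members (16.2%) and in 14% of all genes. The NFY box CCAAT was found in 14 members (37.8%) and in 41.1% of all genes. Of the clock motifs, the E-box CACGTG was found in 4 members (10.8%, against 8.09% of genes) and the D-box TTATGTAA in none of the members (1.11% of genes). None of these 5 motifs contains another, and a match is a description of letters and not of binding.

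The promoters below belong to the 4 genes with the lowest p in the comparison of daily courses and to Psmb5, the most abundant member. Each is written along the direction of transcription, in lower case, and capitals mark the named motif on either strand. In Psme4, chr11:30771525-30771824 (plus strand), the ETS motif begins 53 bases before the start. In Psmd4, chr3:95042565-95042864 (minus strand), it begins 125 bases before the start. In Psmd11, chr11:80428365-80428664 (plus strand), it is on the opposite strand and begins 11 bases before the start. In Psmd14, chr2:61711444-61711743 (plus strand), 3 NFY boxes were found, of which 2 overlap just after the start. In Psmb5, chr14:54617946-54618245 (minus strand), the antioxidant response element core begins 47 bases before the start.
Psme4: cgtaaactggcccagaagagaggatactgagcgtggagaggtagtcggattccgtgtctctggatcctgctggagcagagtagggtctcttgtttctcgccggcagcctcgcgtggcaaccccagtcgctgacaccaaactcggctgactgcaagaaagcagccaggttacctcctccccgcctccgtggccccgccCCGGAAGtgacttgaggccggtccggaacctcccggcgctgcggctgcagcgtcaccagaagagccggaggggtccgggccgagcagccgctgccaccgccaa
Psmd4: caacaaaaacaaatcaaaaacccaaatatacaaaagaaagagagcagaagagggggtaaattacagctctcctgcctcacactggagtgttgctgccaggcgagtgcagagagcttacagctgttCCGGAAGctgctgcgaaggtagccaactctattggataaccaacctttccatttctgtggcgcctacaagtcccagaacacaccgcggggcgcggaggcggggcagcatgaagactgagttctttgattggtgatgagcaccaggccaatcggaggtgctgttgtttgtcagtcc
Psmd11: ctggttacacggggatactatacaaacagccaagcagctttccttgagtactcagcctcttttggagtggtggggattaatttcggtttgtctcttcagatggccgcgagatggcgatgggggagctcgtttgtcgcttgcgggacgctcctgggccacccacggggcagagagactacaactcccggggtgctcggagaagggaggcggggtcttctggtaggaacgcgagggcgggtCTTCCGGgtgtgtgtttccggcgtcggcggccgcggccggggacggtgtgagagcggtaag
Psmd14: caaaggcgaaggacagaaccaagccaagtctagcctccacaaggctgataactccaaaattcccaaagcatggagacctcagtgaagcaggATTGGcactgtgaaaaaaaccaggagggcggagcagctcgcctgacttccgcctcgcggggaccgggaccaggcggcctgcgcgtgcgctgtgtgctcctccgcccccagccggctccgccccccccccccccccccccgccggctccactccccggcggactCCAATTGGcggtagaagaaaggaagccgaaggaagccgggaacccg
Psmb5: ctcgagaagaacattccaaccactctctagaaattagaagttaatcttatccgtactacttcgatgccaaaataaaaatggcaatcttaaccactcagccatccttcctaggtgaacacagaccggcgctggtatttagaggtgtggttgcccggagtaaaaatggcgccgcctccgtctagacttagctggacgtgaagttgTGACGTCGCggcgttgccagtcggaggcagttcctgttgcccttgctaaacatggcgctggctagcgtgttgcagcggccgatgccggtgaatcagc

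The 14 constitutive genes of the 20S core were expressed within a 6.4-fold range of each other per unit of length. The lowest was Psma3 at 34.3 ± 2.5 TPM (SD, n = 56) and the highest was Psmb5, the subunit with chymotrypsin-like activity, at 219.7 ± 20.6 TPM. The other catalytic subunits were Psmb6 (caspase-like) at 130.1 ± 9.8 TPM and Psmb7 (trypsin-like) at 72.3 ± 5.3 TPM. Between these lay Psma1, Psma2, Psma4, Psma5, Psma6, Psma7, Psmb1, Psmb2, Psmb3 and Psmb4, and the median of the core was 80.4 TPM. The 17 genes of the 19S particle spanned 6.58-fold, from Psmd11 at 23.7 ± 1.8 TPM to the ATPase gene Psmc3 at 155.7 ± 10 TPM, with Psmc1, Psmc2, Psmc4, Psmc5, Psmc6, Psmd1, Psmd2, Psmd3, Psmd4, Psmd6, Psmd7, Psmd8, Psmd12, Psmd13 and Psmd14 between them.

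The inducible subunits were lower than the constitutive ones they replace, with Psmb10 at 65.1 ± 9.6 TPM, Psmb8 at 15.6 ± 3.9 TPM and Psmb9 at 9.34 ± 2.51 TPM. Together they made up 18.1 ± 1.7% of all catalytic subunit TPM under NRF (n = 28) and 16.9 ± 2.0% under DRF. The 19S assembly chaperones were low, with Psmd10 at 16.4 TPM, Psmd5 at 7.03 TPM and Psmd9 at 6.05 TPM. Psma8, an alpha subunit otherwise known from testis, was barely present at 1.06 ± 0.27 TPM. Among the activators, Psme1 (116.0 TPM) and Psme2 (43.6 TPM) encode PA28 alpha and beta, Psme3 (54.3 TPM) encodes the nuclear PA28 gamma, and Psme4 (66.8 TPM) encodes PA200. Psme2b (57.9 TPM) is a near copy of Psme2 that shares 52.0% of its 100-base windows with it, so the split of reads between these genes is uncertain. Psmc3ip stood at 3.68 TPM.

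**Figure D1:**
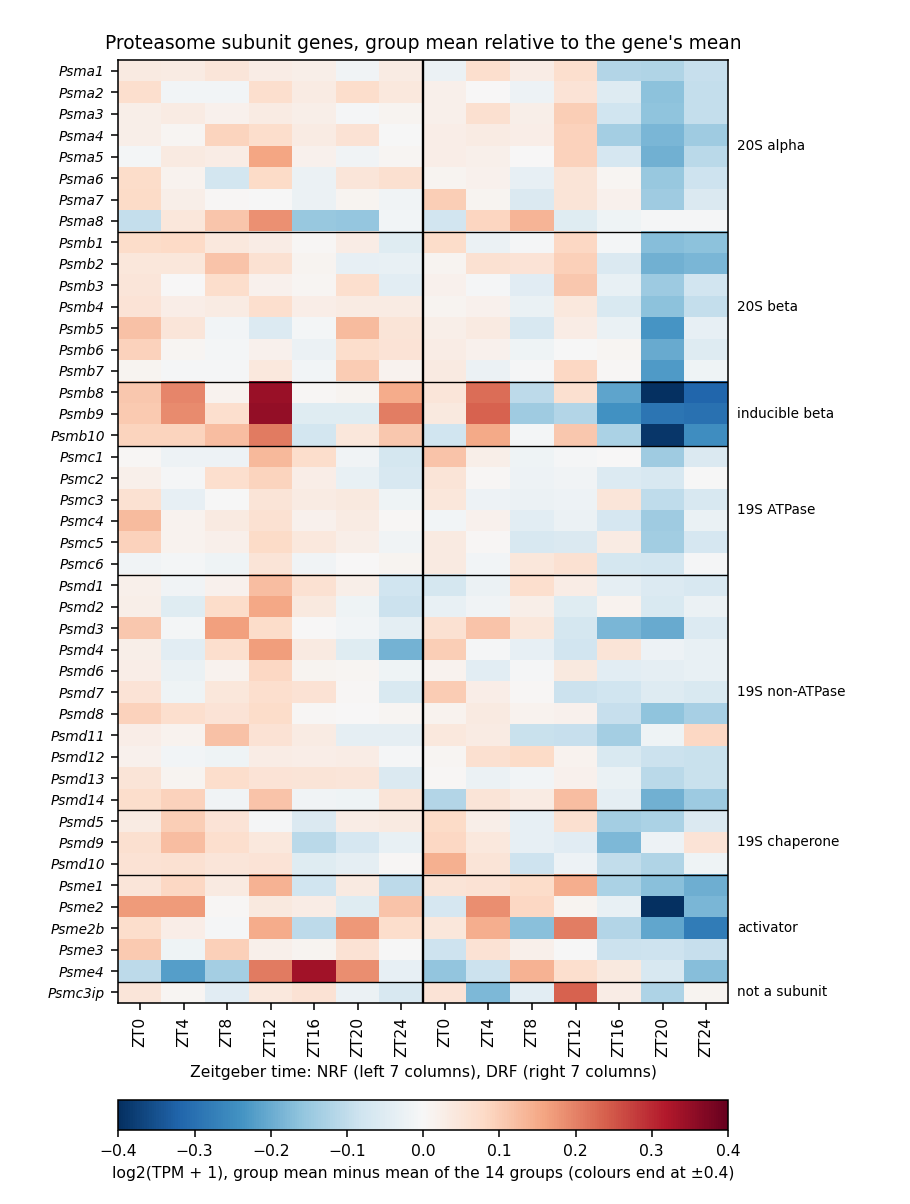
Rows are the 44 members grouped by role, columns are the 14 groups (NRF left, DRF right), and colour is the group mean of log2(TPM + 1) minus the gene's mean over the groups (n = 4 libraries a group). The DRF ZT20 column is blue over most of the core, and 29 of the 44 members have their lowest DRF group mean there, while Psme4 turns red in the dark phase of NRF.

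Rhythms were first tested within each regimen, by fitting a cosine of 24 h to log2(TPM + 1) with limma and adjusting p over the 13893 genes tested. Most proteasome genes were not called rhythmic under the control regimen. Under NRF, 6 of the 44 members (13.6%) were rhythmic at an adjusted p under 0.05, against 37.2% of all genes tested. At an unadjusted p under 0.05, 8 members passed, as did 6518 of the 13893 genes tested. The median amplitude of the members was 0.039 on the log2 scale, against 0.103 for all genes. The 6 rhythmic members were Psme4, Psmd4, Psmd2, Psmd1, Psmc1 and Psma8. With mitochondrially encoded transcripts left out of the sum that sets the scale, Psmb5, Psmc2, Psmd9 and Psmd11 were called too, which made 10.

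Psme4 had by far the widest course under NRF. The 4 libraries at ZT4 stood at 51.5, 56.2, 61.0 and 58.5 TPM, and those at ZT16 at 77.3, 83.2, 91.5 and 83.7 TPM, so that the lowest night library lay above the highest of ZT4. Its fitted amplitude was 0.28 ± 0.03 (SE) with a peak at ZT16.2 ± 0.4 h and a peak-to-trough ratio of 1.48 (adjusted p = 1.16e-07). Psmd4, the 19S receptor for ubiquitin chains, stood at 75.1, 83.4, 74.9 and 70.5 TPM at ZT12 and at 60.9, 62.9, 56.0 and 56.8 TPM at ZT24. These groups did not overlap, and the fitted peak was at ZT11.7 ± 1.0 h (amplitude 0.11 ± 0.02, adjusted p = 0.00303). The scaffold subunits Psmd2 (amplitude 0.08, peak ZT12.0 ± 1.2 h, adjusted p = 0.0213) and Psmd1 (0.07, ZT13.4 ± 1.4 h, adjusted p = 0.0454) peaked at the start of the night, as did the ATPase gene Psmc1 (0.07, ZT13.6 ± 1.3 h, adjusted p = 0.0417). Psma8 was called at amplitude 0.16 ± 0.05 and adjusted p = 0.0488, from a mean of only 30.7 reads per library (lowest 17). Without ZT12 only 1 of the members was called under NRF, and without the libraries numbered replicate 2, 3 or 4 it was 2 each time.

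Under day feeding the members called rhythmic lay in the core, the inducible subunits, the 19S particle and the activators. Under DRF, 16 of the 44 members (36.4%) were rhythmic, against 32.2% of all genes tested. An unadjusted p under 0.05 was reached by 17 members and by 6113 of the 13893 genes. The members' median amplitude over all 44 was 0.074, against 0.10 for all genes. The alpha ring gave 4 of its 8 genes (Psma1, Psma3, Psma4 and Psma5), and the constitutive beta ring gave 1 of 7 (Psmb2). Of the inducible subunits Psmb8 and Psmb10 were called, and of the activators Psme1, Psme2 and Psme4. No 19S ATPase gene was called, while 5 of 11 other 19S genes were (Psmd3, Psmd8, Psmd11, Psmd12 and Psmd14), together with the chaperone gene Psmd9.

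Amplitudes were largest in the interferon-responsive genes. Psmb8 stood at 15.2, 25.3, 18.1 and 14.8 TPM at ZT4 and at 10.9, 8.62, 10.5 and 10.9 TPM at ZT20, without overlap. Its amplitude was 0.26 ± 0.07 with a peak at ZT6.8 ± 1.0 h (adjusted p = 0.0245). Psmb10 ran from 64.6, 70.9, 68.6 and 74.0 TPM at ZT12 to 52.3, 41.6, 52.3 and 50.5 TPM at ZT20 and peaked at ZT7.9 ± 0.8 h (0.22 ± 0.05, adjusted p = 0.00253). Psme2 had an amplitude of 0.24 ± 0.06 (peak ZT7.5 ± 0.9 h, adjusted p = 0.012) and its partner Psme1 one of 0.14 ± 0.04 (peak ZT8.1 ± 0.9 h, adjusted p = 0.00971). Psmd14, the enzyme that strips ubiquitin chains from substrates, had the lowest p (0.14 ± 0.02, peak ZT9.3 ± 0.6 h, adjusted p = 0.000175). It was followed by Psmd3, a lid subunit (0.16 ± 0.03, peak ZT5.1 ± 0.6 h, adjusted p = 0.000346), while the core gene Psmb2 peaked at ZT8.5 ± 0.9 h (0.13 ± 0.03, adjusted p = 0.00627).

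The fitted peaks under DRF were gathered in the second part of the light phase. Of the 44 members, 31 (70.5%) peaked between ZT6 and ZT12, against 31.4% of all genes tested, and of the 16 called members 13 did (81.2%), against 33.1% of all genes called. Under NRF 19 members (43.2%) peaked in that window, against 32.2% of all genes. By group means, 29 members (65.9%) were lowest at ZT20 under DRF, against 23.9% of all genes, and 18 (40.9%) were highest at ZT12, against 19.1%. Under NRF 19 members (43.2%) were highest at ZT12 as well, against 26.3% of all genes. These counts were made with the main scale alone. Mitochondrially encoded transcripts averaged 43.9% of TPM at DRF ZT20 and 39.8 to 41.7% at the other DRF times. Their part in these counts was not tested. Leaving out ZT20 left 8 members rhythmic under DRF, and leaving out the libraries numbered replicate 1 left 7, so the count depends on which libraries are kept. The 3 called members outside the window, Psmd3, Psmd9 and Psmd11, peaked earlier in the light phase.

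**Figure D2:**
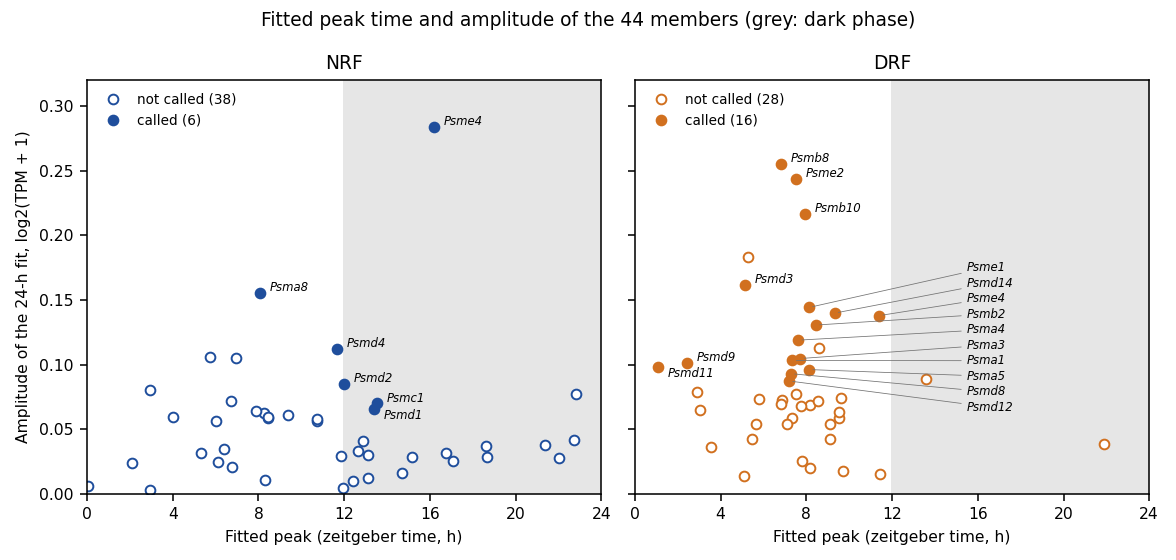
Each point is a member, with the fitted peak (zeitgeber time, h) on the x axis and the amplitude of the 24-h fit on log2(TPM + 1) on the y axis, NRF left and DRF right, and filled points passed an adjusted p of 0.05. Under NRF the 6 filled points lie between ZT8 and ZT16.2, while under DRF 13 of 16 filled points lie between ZT6 and ZT12.

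Whether the courses differed between regimens was tested directly, by the interaction of regimen with the cosine terms of ZT. An unadjusted p under 0.05 was reached by 14 members and by 5410 of the 13893 genes tested. The test called 7 members (15.9%) after adjustment, against 27.5% of all genes. All but Psme4 encode subunits of the 19S particle that are not ATPases, and 0 of the alpha ring, beta ring and inducible genes were called by this limma test, nor were Psme1 (adjusted p = 0.415) and Psme2 (adjusted p = 0.0816). Which members were called depended on the scale, although either other scale called 8. These scales were median-of-ratios, which sets each library by the median of its genes' ratios to a common reference, and a sum from which mitochondrially encoded transcripts were left out. By median-of-ratios Psma4, Psmb5, Psmb10 and Psmd9 were called and Psmd3, Psmd7 and Psmd12 were not, and without mitochondrial transcripts Psmb5 and the ATPase gene Psmc1 were called and Psmd12 was not. Only Psme4 was rhythmic under both regimens with the main scale, as were 17.5% of all genes tested, while median-of-ratios added Psmd1 and Psmd9, and without mitochondrial transcripts it was Psmd9 and Psmd11 and not Psme4.

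Psme4 moved earlier and flattened. Under DRF its libraries stood at 79.3, 67.5, 66.6 and 60.3 TPM at ZT16 and at 67.6, 54.3, 56.3 and 73.0 TPM at ZT4, and these groups overlapped. The fitted peak was at ZT11.4 ± 1.2 h with an amplitude of 0.14 ± 0.04 (adjusted p = 0.0192), that is -4.81 ± 1.24 h from the NRF peak. The courses differed at adjusted p = 0.000296 by ZT.

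Psmd4 kept a course under NRF only, with an amplitude of 0.04 ± 0.02 under DRF (adjusted p = 0.333), and its courses differed at adjusted p = 0.00144. At ZT12 its DRF libraries stood at 61.3, 60.9, 64.7 and 69.1 TPM, all below those of NRF given above. Psmd11, a lid subunit that sets how much assembled proteasome a cell holds, differed at adjusted p = 0.00363. Under DRF it peaked at ZT1.1 ± 1.1 h (amplitude 0.10 ± 0.03, adjusted p = 0.0161), and the NRF fit, which was not called, had its maximum at ZT9.4 ± 1.5 h (adjusted p = 0.0974). At ZT8 its 4 NRF libraries stood at 25.9, 23.7, 26.1 and 27.2 TPM and the DRF libraries at 22.9, 22.6, 21.4 and 21.5 TPM, without overlap. For Psmd11 no single time passed its own test.

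Psmd14 differed at adjusted p = 0.0119. Its DRF groups ran from 33.6, 34.1, 32.9 and 36.7 TPM at ZT12 to 28, 26.2, 27.9 and 27.5 TPM at ZT20, while its NRF amplitude was 0.03 ± 0.03 (adjusted p = 0.642). Psmd3 (adjusted p = 0.0474), Psmd12 (0.0486) and Psmd7 (0.0487), all of the lid, passed narrowly. Leaving out ZT12 reduced the count to 3, and leaving out the libraries numbered replicate 3 reduced it to 2.

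**Figure D3:**
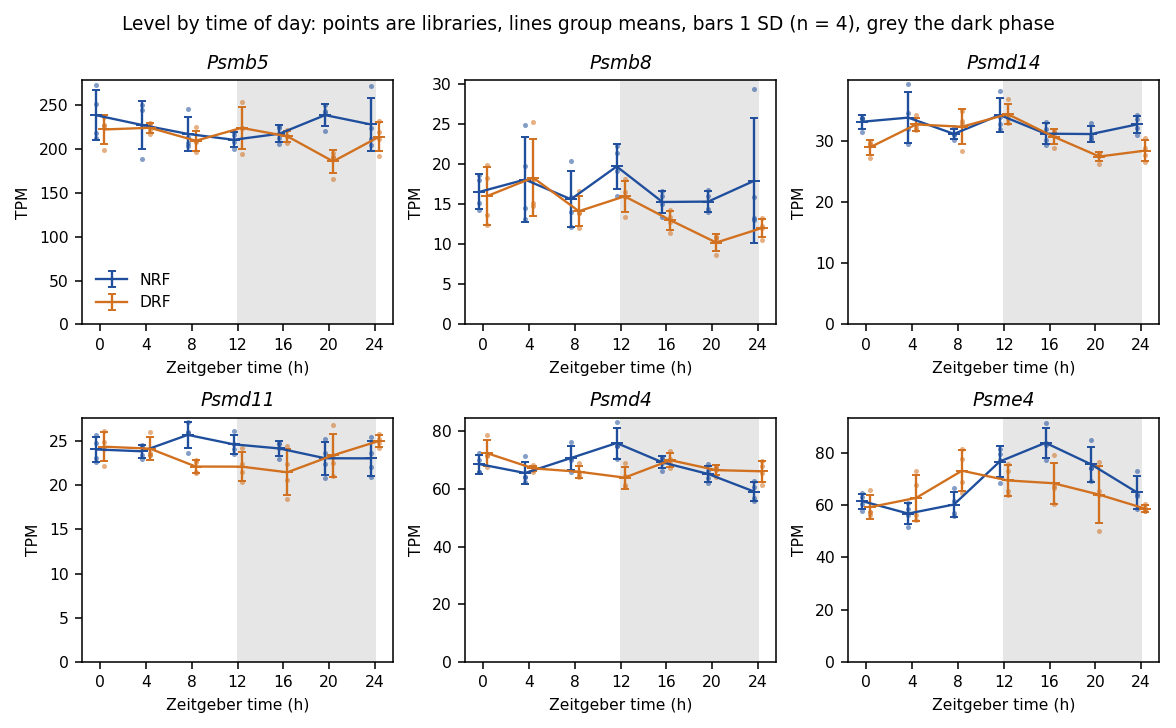
Level in TPM against zeitgeber time (h) for 6 members, with NRF in blue and DRF in orange, points for libraries, lines for group means, bars for 1 SD (n = 4) and grey for the dark phase, all axes from 0. Psme4 reaches 83.9 TPM at ZT16 under NRF and 68.4 TPM under DRF, and Psmb5 and Psmb8 dip at DRF ZT20 to 186.1 and 10.2 TPM.

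When time was counted from the start of feeding (ZT0 for DRF, ZT12 for NRF), 17 members (38.6%) had different courses, against 41.3% of all genes tested. By both clocks, Psme4, Psmd3 and Psmd14 differed. Psme4 had the lowest p by feeding time (adjusted p = 3.92e-07). Psmd9 (adjusted p = 0.000821), Psmd3 (0.000838), Psmb2 (0.00111), Psmd14 (0.00118), Psmb10 (0.00174), Psmd1 (0.00338), Psme1 (0.00434), Psma4 (0.00529), Psma5 (0.00582), Psma1 (0.00616), Psme2 (0.0221), Psma8 (0.0275), Psmd2 (0.0285), Psmd8 (0.0294), Psma3 (0.0318) and Psmd5 (0.0351) followed. Genes of protein quality control are known for components of 12 h. None of the members had one at an adjusted p under 0.05 under either regimen by limma, where 0.0% of all genes tested under NRF and 0.209% under DRF did. At an unadjusted p under 0.05, 0 members under NRF and 11 under DRF had such a component, against 806 and 2519 of all 13893 genes. The lowest adjusted p under DRF was that of Psmc3ip (0.0968), followed by Psmb5 (0.142).

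With the main scale, ZT20, late in the night, when NRF mice were feeding and DRF mice were fasting, was the single time with the most members called between regimens. At this time 11 members (25%) were lower under DRF and 0 higher, against 11.5% of all genes called lower and 14.8% called in either direction. An unadjusted p under 0.05 was reached by 28 members and by 4238 of the 13893 genes. Of the 7 constitutive beta subunits 5 were called (Psmb1, Psmb3, Psmb5, Psmb6 and Psmb7), of the alpha ring Psma2 and Psma4, of the inducible subunits Psmb8 and Psmb10, of the 19S particle Psmd14, and of the activators Psme2. The members' median difference was -0.16 on the log2 scale, against -0.07 for all genes.

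All of the constitutive catalytic sites were among the called genes. Psmb5 stood at 241.2, 243.8, 250.4 and 220.5 TPM under NRF and at 166.2, 191.0, 195.6 and 191.7 TPM under DRF. The groups did not overlap, and the difference was -0.36 ± 0.08 (SE), a ratio of 0.779 (adjusted p = 0.00273). Psmb6 stood at 135.0, 138.2, 142.1 and 129.7 TPM under NRF and at 103.0, 109.0, 122.6 and 117.7 TPM under DRF, again without overlap (-0.27 ± 0.07, adjusted p = 0.00809). Psmb7 stood at 76.6, 82.1, 78.4 and 72.6 TPM under NRF and at 58.2, 58.6, 72.9 and 57.3 TPM under DRF. Here 1 DRF library reached into the NRF range, and the difference of -0.33 ± 0.07 had the lowest p of the members (adjusted p = 0.000719).

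The largest difference was that of the inducible subunit Psmb8, whose libraries stood at 14.5, 16.8, 16 and 14.1 TPM under NRF and 10.9, 8.62, 10.5 and 10.9 TPM under DRF (-0.54 ± 0.18, adjusted p = 0.0325). Psmb10 stood at 71.2, 66.8, 67.1 and 61.1 TPM under NRF and at 52.3, 41.6, 52.3 and 50.5 TPM under DRF (-0.43 ± 0.11, adjusted p = 0.00552). Neither gene's groups overlapped. Psme2 stood at 50.4, 46.0, 34.1 and 37.4 TPM under NRF and at 23.5, 32.7, 38.4 and 29.4 TPM under DRF, with overlap (-0.43 ± 0.15, adjusted p = 0.0405). The alpha ring genes Psma4 (-0.24 ± 0.06, adjusted p = 0.00368) and Psma2 (-0.23 ± 0.07, adjusted p = 0.0203) differed less, without overlap, as did Psmd14 (-0.17 ± 0.06, adjusted p = 0.0446). Psmb1 (-0.20) and Psmb3 (-0.21) completed the set. Psmb9, at 7.90, 9.34, 9.89 and 8.02 TPM under NRF and 9.08, 6.17, 6.68 and 7.32 TPM under DRF, overlapped and was not called.

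The summed core gave the same picture without a test. The 14 constitutive core genes summed to 1461, 1483, 1511 and 1365 TPM at ZT20 under NRF and to 1197, 1160, 1313 and 1298 TPM under DRF, while the 19S genes summed to 1272, 1299, 1280 and 1178 TPM and to 1155, 1059, 1207 and 1253 TPM, with overlap. In 12 members every DRF library at ZT20 lay below every NRF library, against 15.4% of all genes tested.

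The scale touched this result. Mitochondrially encoded transcripts took 38.5 to 39.7% of TPM at ZT20 under NRF and 42.5 to 46.1% under DRF, so that the groups did not overlap in this share either. Leaving those transcripts out of the sum moved the median of all genes by 0.105 on the log2 scale and left 3 members lower (Psmb5, Psmb7 and Psmb10) and 1 higher (Psmd4). Scaling by median-of-ratios left 5 lower (Psma4, Psmb5, Psmb7, Psmb8 and Psmb10) and 0 higher. Of all genes called at ZT20, 466 were higher and 1596 lower with the main scale, 1161 and 596 without mitochondrial transcripts, and 1203 and 1174 by median-of-ratios. Relative to the median of all genes, the members' median was -0.09 with the main scale, -0.07 without mitochondrial transcripts and -0.08 by median-of-ratios, with 36, 34 and 34 of the 44 members below it. Leaving out single libraries gave from 4 (without replicate 1 of DRF ZT20) to 14 (without replicate 4 of NRF ZT20) called members, with 5 without replicate 2 of DRF ZT20 or replicate 1 of NRF ZT20. Red blood cell markers summed to 1683 to 67340 TPM over all libraries, and at ZT20 they were highest in replicate 4 of NRF (40730 TPM) and replicate 2 of DRF (52220 TPM), the libraries with the lowest core sums of their groups (1365 and 1160 TPM). Their part in these differences was not tested.

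**Figure D4:**
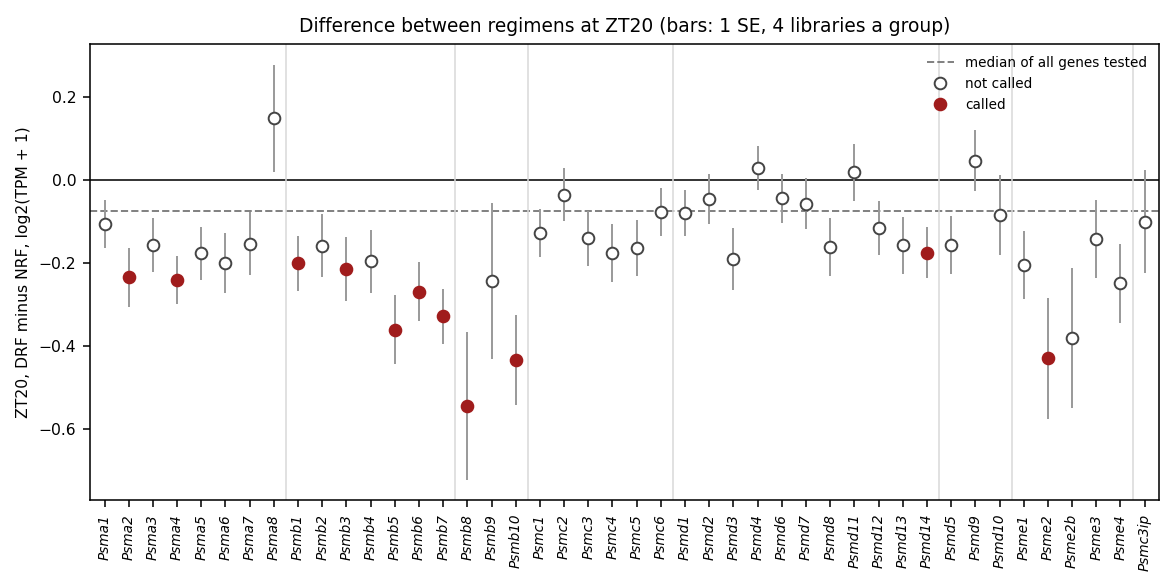
Difference at ZT20, DRF minus NRF, on log2(TPM + 1) for the 44 members in order of role, with bars of 1 SE (4 libraries a group), filled points for an adjusted p under 0.05 and a dashed line at the median of all genes tested (-0.07). The filled points lie mainly in the beta ring and the inducible subunits, all below the line, and Psma8, Psmd4, Psmd9 and Psmd11 are the only members above 0.

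At each of the other times at most 3 members were called with the main scale. At ZT0 only Psmd14 was called (33.6, 33.6, 33.8 and 31.4 TPM under NRF, 29.3, 29.5, 29.9 and 27.1 TPM under DRF, -0.19 ± 0.06, adjusted p = 0.0365), where 11.5% of all genes were, and the call was lost without any 1 of 6 of these 8 libraries (all but replicate 4 of NRF and replicate 3 of DRF). The next members, Psme3 and Psmc1, were not called (adjusted p = 0.208 and 0.224), but with either other scaling Psmc1 was called higher under DRF and Psmd14 was not called. At ZT12 (7.64% of genes) Psmd4 was lower under DRF (-0.24 ± 0.05, adjusted p = 0.0028) and so was Psmd2 (-0.21 ± 0.06, adjusted p = 0.025), while Psmd7 was not called (adjusted p = 0.109). By median-of-ratios Psmd4 alone was called at ZT12, and 1 member was called without replicate 1, 2 or 3 of NRF or replicate 1 or 3 of DRF. At ZT16 (6.87% of genes) Psme4 was lower (-0.30 ± 0.10, adjusted p = 0.0493), and no member was called there without a filter on low genes, with either other scaling or by limma-voom. Nor was any called without any 1 of replicates 2 to 4 of either regimen, and without replicate 1 of DRF there were 3. The next there were Psma4 (adjusted p = 0.0608) and Psmd11 (adjusted p = 0.112). At ZT24 (8.83% of genes) Psmd4 was higher (0.16 ± 0.05, adjusted p = 0.046), while Psmd14 (-0.20 ± 0.06, adjusted p = 0.0335) and Psmb10 (-0.36 ± 0.11, adjusted p = 0.0314) were lower. No member was called at ZT24 without replicate 1 or 3 of DRF or replicate 3 of NRF, and without replicate 1 of NRF there were 5. By median-of-ratios 5 members were called at ZT24 (Psmb8, Psmb9, Psmb10 and Psmd14 lower and Psmd4 higher), as many as at ZT20, and limma-voom called 7. Relative to the median of all genes, the members' median at ZT24 was -0.08 with each of the 3 scales (at ZT20 -0.09, -0.07 without mitochondrial transcripts and -0.08 by median-of-ratios), and 34 of the 44 members lay below it with the main scale. The white blood cell markers summed to 372.7 to 699.2 TPM in the NRF libraries of ZT24 and to 186.5 to 335.6 TPM in the DRF libraries, and their part in the Psmb10 difference was not tested. At ZT4 and ZT8 limma called 0 members (0.446% and 0.353% of genes), with 0 and 2 at an unadjusted p under 0.05. The unadjusted threshold was passed by 1665 and 2030 of the 13893 genes. The lowest p at ZT4 was that of Psmd3 (adjusted p = 0.534), and at ZT8 that of Psmd11 (adjusted p = 0.142) and Psme4 (adjusted p = 0.167).

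ZT24 and ZT0 are the same clock time a day apart and served as the background. No member was called between them under DRF (0.425% of genes) or NRF (0.0576% of genes) by limma. At an unadjusted p under 0.05 there were 11 and 1, against 1694 and 1273 of all 13893 genes. Without mitochondrial transcripts in the sum Psmb1 was called lower at ZT24 under DRF. Under DRF, however, 40 of the 44 members were lower at ZT24 than at ZT0, with a median of -0.10 against -0.02 for all genes, and Psmb1 had the lowest p (-0.24 ± 0.07, adjusted p = 0.0963).

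Hearts were also compared at the same hour after food was given. At the start of feeding (DRF ZT0 against NRF ZT12) 4 members were lower under DRF, where 6.21% of all genes were called. These were Psme4 (-0.37 ± 0.10, adjusted p = 0.0124), Psmd14 (-0.23 ± 0.06, adjusted p = 0.014), Psmd1 (-0.19 ± 0.06, adjusted p = 0.0254) and Psmd2 (-0.19 ± 0.06, adjusted p = 0.0497). By median-of-ratios Psmd2 was not called. Only 1 member was called without replicate 4 of DRF ZT0 or replicate 2 of NRF ZT12, and 2 without replicate 1 or 2 of DRF ZT0 or replicate 3 of NRF ZT12. After 4 h of feeding (DRF ZT4 against NRF ZT16, 6.4% of genes) Psme4 alone was lower (-0.42 ± 0.10, adjusted p = 0.00306). After 8 h (DRF ZT8 against NRF ZT20, 5.49% of genes) and 12 h (DRF ZT12 against NRF ZT24, 5.18% of genes) limma called 0 members, with 2 and 3 at an unadjusted p under 0.05. Of all 13893 genes, 2828 and 2495 passed that unadjusted threshold. The lowest p after 8 h was that of Psmb5 (adjusted p = 0.184) and after 12 h that of Psme1 (adjusted p = 0.0636).

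Hearts were next compared during the fast. With DRF ZT16 against NRF ZT4 (22.7% of genes called) the chaperone genes Psmd9 (-0.30 ± 0.07, adjusted p = 0.00261) and Psmd5 (-0.24 ± 0.07, adjusted p = 0.0125) were lower under DRF and Psme4 was higher (0.26 ± 0.10, adjusted p = 0.0422). The direction depended on the scale. By median-of-ratios, which moved the median of all genes by 0.105, 5 members were higher (Psmc1, Psmc3, Psmd2, Psmd4 and Psme4) and 1 lower (Psmd9), and without mitochondrial transcripts 0 were higher and 6 lower (Psmb8, Psmd3, Psmd5, Psmd8, Psmd9 and Psme1). Of all genes called, 490 were higher and 2660 lower with the main scale and 1360 and 1663 by median-of-ratios. Leaving out replicate 3 of NRF ZT4 raised this count to 12, and leaving out replicate 4 of that group reduced it to 1. With DRF ZT20 against NRF ZT8, 17 members (38.6%) were lower and 0 higher, against 20.9% of genes called lower and 24.1% called in either direction. Most of the beta ring (6 of 7) and 4 of 8 alpha ring genes were among them, and no ATPase gene was. Psmb8 (-0.55 ± 0.18, adjusted p = 0.0213), Psmb10 (-0.51 ± 0.11, adjusted p = 0.000707), Psme2 (-0.48 ± 0.15, adjusted p = 0.014) and Psmd3 (-0.37 ± 0.07, adjusted p = 0.000463) differed most.

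For Psmd3 the libraries stood at 58.6, 51.1, 54.1 and 63.0 TPM at NRF ZT8 and at 44, 38.1, 43.7 and 49.6 TPM at DRF ZT20, without overlap. This comparison uses the same DRF ZT20 libraries as the one at equal ZT, so the pair of results is not independent. Leaving out mitochondrial transcripts moved the median of all genes by 0.124 here and left 2 members called (Psmb10 and Psmd3), and median-of-ratios left 3 (with Psmb8). Of all genes called here, 436 were higher and 2907 lower with the main scale, 977 and 929 without mitochondrial transcripts, and 1368 and 1338 by median-of-ratios. Without replicate 4 of DRF ZT20 the count was 22 and without replicate 4 of NRF ZT8 it was 5.

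Over the whole day, 13 members (29.5%) had a lower mean level under DRF and 0 a higher one, where 24.3% of all genes were called lower and 1.67% higher. The members' median difference of -0.05 matched that of all genes (-0.05), and while 42 of the 44 members lay below 0 with the main scale, 25 lay above 0 by median-of-ratios. The inducible subunits stood out in size, with Psmb9 at -0.24 ± 0.07 (adjusted p = 0.0138), Psmb8 at -0.23 ± 0.07 (adjusted p = 0.0115) and Psmb10 at -0.16 ± 0.04 (adjusted p = 0.00809). Under NRF Psmb8 ranged from 12.2 to 29.5 TPM and had a mean of 17 TPM, and under DRF it ranged from 8.62 to 25.3 TPM with a mean of 14.3 TPM, so that single libraries of the regimens overlapped widely. The 10 other called members differed by -0.06 to -0.09 (Psma4, Psma5, Psmb4, Psmc4, Psmc5, Psmd3, Psmd8, Psmd11, Psmd13 and Psmd14). Without mitochondrial transcripts in the sum the 3 inducible subunits stayed lower and no other member was called, and by median-of-ratios Psmb8 alone was. Of all genes called, 232 were higher and 3375 lower with the main scale, 353 and 1249 without mitochondrial transcripts, and 767 and 1043 by median-of-ratios. Leaving out ZT8 left 0 members called.

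The inducible subunits moved with markers of white blood cells. Most of the sum of these 7 markers came from the MHC class II genes Cd74 (mean 256.1 TPM) and H2-Aa (78.3 TPM), while Ptprc, which marks all white blood cells, stood at 1.70 TPM. Over the 56 libraries the correlation with the summed markers was 0.77 for Psmb9, 0.75 for Psmb8 and 0.72 for Psmb10, against 0.39 for Psmb5, 0.39 for Psmb6 and 0.20 for Psmb7 and a median of 0.21 over all genes. Over the members other than the inducible subunits it ran from -0.06 for Psmc6 to 0.56 for Psma5. For Psmb9, Psmb8 and Psmb10 it was 0.66, 0.69 and 0.64 within NRF (n = 28), and 0.79, 0.72 and 0.69 within DRF. For Psmb5, Psmb6 and Psmb7 it was 0.44, 0.53 and 0.45 within NRF, and 0.19, 0.15 and -0.06 within DRF. The constitutive subunits thus lay closer to the inducible ones within NRF than within DRF. These are descriptions across libraries that share the scale of each library. Of 6 white blood cell markers tested, only Cd68 was called rhythmic. Its amplitude was 0.20 ± 0.06 under NRF (peak ZT9.8 ± 1.3 h, adjusted p = 0.0404) and 0.24 ± 0.07 under DRF (peak ZT10.4 ± 1.2 h, adjusted p = 0.0239). Cd68 and Cd74 had a lower mean level under DRF. At ZT20 the 7 summed to 383.1 to 526.3 TPM under NRF and to 254.3 to 389.1 TPM under DRF, while 0 of the 6 passed the test at that time. Markers of other cell types were lower in mean level under DRF as well, namely all 3 of the endothelium (Kdr, Cdh5 and Pecam1, median -0.15), 2 of 3 of fibroblasts (Pdgfra and Col1a1), Acta2 of smooth muscle and Acta1 of skeletal muscle, while 1 of 6 of cardiomyocytes was lower and 1 higher. The part of such cells in the levels of the inducible subunits was not tested. Without the 2 libraries highest in these markers (replicate 2 of NRF ZT24 at 699.2 TPM and replicate 2 of DRF ZT4 at 609.3 TPM), 10 members were lower in mean level and 16 were rhythmic under DRF.

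Partners of the inducible subunits in antigen processing were lower too. Of 11 tested genes that load peptides on MHC class I or answer to interferon, 10 had a lower mean level under DRF and 0 a higher one, against 24.3% and 1.67% of all genes, with a median of -0.20 against -0.05 for all genes. The peptide transporter subunit Tap1 had the largest difference (-0.35 ± 0.09, adjusted p = 0.00293), followed by B2m, the light chain of MHC class I (-0.29 ± 0.08, adjusted p = 0.00581). Irf1, an interferon-responsive transcription factor, was lower by mean as well (-0.22 ± 0.05, adjusted p = 0.000996), and it was rhythmic under both regimens, with peaks at ZT10.3 ± 1.3 h under NRF and ZT6.4 ± 1.0 h under DRF, without a difference of courses that passed the test (adjusted p = 0.201). Tap2, Tapbp and Erap1 were called rhythmic under DRF and not under NRF. Their DRF peaks were at ZT4.8 ± 1.0 h, ZT6.7 ± 0.8 h and ZT9.4 ± 1.1 h (adjusted p = 0.0257, 0.00768 and 0.0218). No other partner tested was called rhythmic. By limma 0 of the 11 passed the test at ZT20, and 5 were lower at ZT12, where 7.64% of all genes were called. Psmb9 overlaps Tap1 on the opposite strand (2.73% of its 100-base windows occur there), Psmb8 overlaps Gm20496 in the same way (8.05%), and whether reads were assigned by strand is not given in the sources used here.

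**Figure D5:**
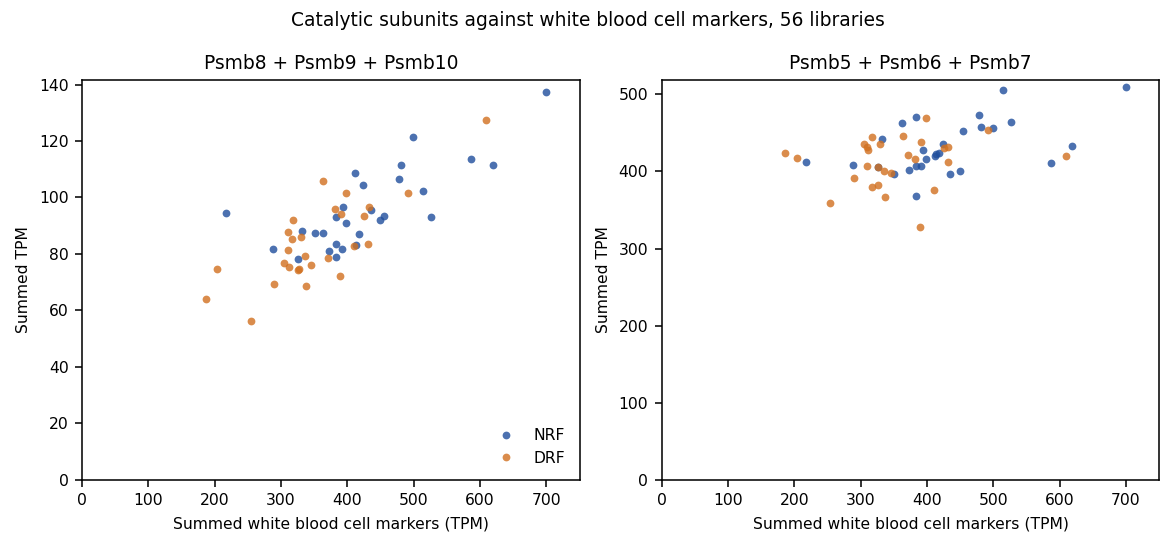
Each point is 1 of the 56 libraries (NRF blue, DRF orange), with the summed TPM of 7 white blood cell markers on the x axis and on the y axis the summed TPM of the inducible (left) or constitutive (right) catalytic subunits, axes from 0. The inducible sum runs from 56.4 to 137.5 TPM and climbs with the markers, while the constitutive sum runs from 327.4 to 509.1 TPM.

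Genes that control, assemble or supply the proteasome moved in both directions. Of 39 symbols named for such genes, with older synonyms among them, 35 were listed and tested. Of these, 12 were rhythmic under NRF (37.2% of all genes were), 13 under DRF (32.2% of all genes), and 16 had different courses by ZT (27.5% of all genes). Some stress-responsive genes outside the particle had wide courses. Sqstm1, an autophagy receptor that also delivers substrates to the proteasome, had its peak at ZT12.5 ± 0.5 h under NRF and at ZT23.3 ± 0.3 h under DRF (amplitudes 0.30 and 0.35). The polyubiquitin gene Ubb was called under DRF alone (0.26 ± 0.06, peak ZT20.7 ± 0.8 h). Zfand5, which activates the 19S particle, was also called under DRF alone (0.25 ± 0.04, peak ZT20.1 ± 0.6 h). Nfe2l1, the activator of the subunit genes, peaked at ZT2.3 ± 0.7 h under DRF (0.14 ± 0.02). Its courses differed between regimens by the interaction test (adjusted p = 0.003). With the main scale its mean level was lower under DRF (-0.12 ± 0.03, adjusted p = 0.000899 by limma). It was called lower at ZT12 and ZT16 and was not called at ZT20 (-0.03 ± 0.07, adjusted p = 0.822).

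At ZT20, where 11.5% of all genes were called lower and 14.8% in either direction, and where the direction of calls depended on the scale as given above, 2 of the 35 were higher and 5 lower. Zfand5 (0.44 ± 0.07, adjusted p = 0.000113) and Sqstm1 (0.35 ± 0.08, adjusted p = 0.00243) were higher under DRF. The small 19S subunit gene Sem1 (-0.45 ± 0.09, adjusted p = 0.000676) and Rad23b, a shuttle for ubiquitin chains (-0.23 ± 0.06, adjusted p = 0.00553), were lower, as were 3 of 5 genes that assemble the core, Psmg3 (-0.42 ± 0.12, adjusted p = 0.0119), Psmg4 (-0.38 ± 0.13, adjusted p = 0.0348) and Pomp (-0.23 ± 0.06, adjusted p = 0.00806). In mean level 10 of the 35 were lower and 0 higher, against 24.3% and 1.67% of all genes.

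The core genes varied together from library to library. Over the 56 libraries the mean pairwise correlation was 0.72 among the 14 constitutive core genes, 0.87 among the 3 inducible subunits and 0.53 among the 17 genes of the 19S particle, against 0.15 among all genes tested. These values include what all genes of a library share, such as its scale and cell makeup.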

How the data were processed

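Hearts of mice on DRF or NRF were profiled by polyadenylated RNA-seq in 56 libraries, 4 for each of 14 groups, taken from the labels. The submitters' processing notes name HISAT2 2.0.5, featureCounts 1.5.0-p3 and mm10. The annotation and strand setting of the counting are not given in the sources used here. The deposited values, named TPM by the authors, are another quantity, log-compressed counts over gene length, log2(1 + scaled reads) divided by length. Whole reads were recovered from them with exon lengths of the GRCm38 annotation, and every value under 30000 reads lay within 0.1 of a whole read. For 858 of the 22864 genes the length was searched for in the values themselves, 3 members (Psma8, Psmb8 and Psmb9) among them, and 3 genes were left out. Linear TPM were recomputed from the reads.

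The 13893 genes that averaged 1 TPM or more were tested on log2(TPM + 1) with limma 3.58.1 in R 4.3.3, with a trend in the prior variance and Benjamini-Hochberg adjustment over all of them. A difference is thus on the log2(TPM + 1) scale, which understates changes of low genes. Rhythms used cosine and sine terms of 24 h, differences of courses their interaction with regimen, and single times a model of the 14 group means. The planned test assumed linear TPM. The scripts were tested on simulated data. Members and lists were chosen with earlier results of these data known. The members described with values were the catalytic subunits and, in each comparison, those with the largest effects and lowest p, up to a fixed number. Other scalings, filters, pseudocounts, thresholds, limma-voom, the deposited values and left-out libraries were tried as alternatives. Depth was 29.3 to 53.0 M reads per library. Replicate numbers did not pair libraries, since the deviations of libraries with the same number had a mean correlation of 0.017 (other numbers -0.006).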

Additional observations from a re-analysis of the deposited data

Results flagged for a closer look

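Of 210 groups of 4 values examined (members and sums named in the text), 20 had 1 library far from the other 3, where chance flags about 1 in 20. For Psmb5 this was a library of DRF ZT20 at 166.2 TPM, for Psmb7 one of DRF ZT20 at 72.9 TPM, and for Psmb10 one of DRF ZT20 at 41.6 TPM and one of NRF ZT16 at 56.6 TPM. Psmb6 had 4 such libraries, at 113.4 TPM (NRF ZT4), 139.7 TPM (NRF ZT12), 155.0 TPM (NRF ZT24) and 114.8 TPM (DRF ZT8). Psmb9 had 3, at 7.59 TPM (NRF ZT0), 18.9 TPM (NRF ZT24) and 5.76 TPM (DRF ZT24). Psmd14 had one at 31.4 TPM (NRF ZT0) and Psme4 one at 66.0 TPM (DRF ZT0). The summed core stood apart at 1248 TPM (NRF ZT4) and 1532 TPM (NRF ZT8), and the summed 19S particle at 1150 TPM and 1350 TPM in the same groups. The inducible subunits stood apart at 78.3 TPM (NRF ZT16) and 83.2 TPM (NRF ZT20), and PA28 at 188.2 TPM (NRF ZT24).

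The daily course differed between the regimens by the interaction test of limma for Psme4 (adjusted p = 0.000296), Psmd4 (0.00144), Psmd11 (0.00363), Psmd14 (0.0119), Psmd3 (0.0474), Psmd12 (0.0486) and Psmd7 (0.0487).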

How the results depend on the processing

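Of 1967 values of called members recomputed under the alternatives, 1269 kept their call and 698 lost it. Of the 1064 that have a sign (differences in level), 0 changed direction, and the other 903 (amplitudes and interaction p-values) have none. For counts of called members that moved by over 1.5 times, the cause was not tested unless the alternative leaves out samples or tightens the threshold. With an adjusted p under 0.01 there were 2 rhythmic members under NRF, 9 under DRF, 3 with different courses by ZT and 11 by food, 1 in mean level, and at single times 0 (ZT0), 1 (ZT12), 0 (ZT16), 5 (ZT20) and 0 (ZT24), then 0, 1 and 4 for DRF ZT0, ZT16 and ZT20 against NRF ZT12, ZT4 and ZT8. Without mitochondrial transcripts in the sum there were 10 under NRF, 3 in mean level, 0 at ZT16, 4 at ZT20, 1 between ZT24 and ZT0 under DRF, and 1, 6 (0 higher) and 2 for DRF ZT12, ZT16 and ZT20 matched by food. By median-of-ratios there were 1 in mean level, 1 at ZT12, 0 at ZT16, 5 at ZT20, 5 at ZT24, and 2, 1, 6 (5 higher) and 3 for DRF ZT4, ZT12, ZT16 and ZT20 matched by food. On the deposited values there were 10 under DRF, 11 by food, 3 in mean level, 0 at ZT16, 5 at ZT20 and 2 for DRF ZT20 matched by food. Without a filter there were 4 with different courses, 0 at ZT16 and 7 at ZT20. By limma-voom there were 4 in mean level, 2 at ZT0, 0 at ZT16, 7 at ZT24, 1 between ZT24 and ZT0 under DRF, and 1 and 10 for DRF ZT12 and ZT20 matched by food. With the clock times as a factor in place of the cosine there were 2 under NRF.

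Leaving out libraries or times gave 1 to 6 rhythmic members under NRF, 7 to 17 under DRF, 2 to 7 with different courses by ZT, 6 to 20 by food, 0 to 1 with a 12-h component under DRF and 0 to 14 in mean level. At single times the ranges were 0 to 1 (ZT0), 0 to 6 (ZT12), 0 to 3 (ZT16), 2 to 23 (ZT20) and 0 to 5 (ZT24), and for DRF ZT0, ZT4, ZT12, ZT16 and ZT20 matched by food 1 to 4, 0 to 1, 0 to 1, 0 to 12 and 5 to 22. With a replicate block, although the numbers pair no libraries (0 of 91 pairs of groups had every same-number correlation over 0.1), there were 4 rhythmic members under NRF, 16 under DRF, 5 with different courses, 18 by food, 10 in mean level, 9 at ZT20 and 2 at ZT24.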

Other observations

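The pseudogene Psmb6-ps2, which the symbol rule leaves out, had reads in 33 of the 56 libraries, with a mean of 1.48 and a highest count of 6, at a mean of 0.123 TPM.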
